A study of Mus musculus with 2 samples.

Results

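Ribosome-making genes of the nucleolus and the subunits of the RNA exosome were compared between 2 macrophage populations sorted from mouse hearts injured by ischemia–reperfusion (IR), in which a coronary artery is tied for a time and then released. The genes were taken by name. They were the measured genes whose symbols start with Utp, Nop, Nol, Rrp or Exosc and a digit, the genes Imp3 and Imp4, and Fbl, Ncl, Npm1, Nolc1, Dkc1, Gar1, Nhp2, Pes1, Bop1 and Wdr12. The rule found 56 of the 19505 genes with a symbol, each with 1 probe set. Nop56, Exosc6 and Utp14b were not analysed here. The 56 genes were sorted by the role of their products into 21 processome genes, 7 snoRNP genes, 9 exosome genes and 14 genes of the large ribosomal subunit and later steps, with 2 nucleolar scaffold proteins (Ncl and Npm1). The other 3 (Nol3, Nol4 and Nol4l) match by name only and are not known for a part in ribosome making.

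Both populations came from wild-type C57BL/6 male mice, 10 weeks old, whose hearts had undergone IR. Heart cells that carried CD45 and CD11b, a gate that takes myeloid cells and other leukocytes with CD11b, were sorted into MHCII+ macrophages and MerTK- macrophages. The study pooled the cells of several hearts into a sample, and counts the MHCII+ cells among its MerTK+ macrophages. The labels do not name MerTK in the MHCII+ gate. With 1 array per population there was no replicate to measure a spread, so no difference was tested, and this number of arrays bounds how precise each value can be.

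A ribosome begins in the nucleolus, where RNA polymerase I makes 1 long precursor of the ribosomal RNAs. The processome, a large assembly built around the U3 small nucleolar RNA, folds and cuts the part of this precursor that becomes the small subunit. Small nucleolar ribonucleoproteins (snoRNPs) modify the precursor, those of the box C/D kind by adding methyl groups and those of the box H/ACA kind by turning uridine into pseudouridine. The RNA exosome, a barrel of subunits that digests RNA from its tail end, trims ribosomal RNA ends, degrades discarded spacer pieces and turns over many other RNAs in the nucleus and cytoplasm. Cells that grow or divide need more of this machinery.

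Values are log2 intensities as deposited, and a difference is the MHCII+ value minus the MerTK- value, so that 1 on this scale is a 2-fold difference. Since probe sets differ in how brightly they report RNA, only the arrays, not the genes, are compared in level. A floor for unexpressed genes was set on each array from smell and taste receptor genes, at 4.23 for MHCII+ macrophages and at 4.67 for MerTK- macrophages. A gene counted as above the floor if the larger of its values passed the floor set for that population. This was so for 10521 genes (53.9%) and for 53 of the 56. Exosc4 (3.21 and 2.60), Nol3 (2.999 and 2.97) and Nol4 (4.38 and 4.601) did not pass, although the lower of the Nol4 values, that of MHCII+ macrophages, was above the floor set for them. The floor is a weak one, since 60.02% of negative-control probe sets lay above it for MHCII+ and 53.2% for MerTK- macrophages.

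The labels held on the arrays for the markers of the sort. Mertk measured 8.77 in MHCII+ macrophages against 5.97 in MerTK- macrophages, and all 7 measured MHC class II genes were 2-fold or more higher in MHCII+ macrophages. Of 17 resident macrophage markers, 13 were at least 2-fold higher there, with Timd4 near the floor on both arrays (4.65 and 4.48). Transcripts of other cells also differed. MerTK- macrophages had 2-fold or larger excesses of 13 of 14 neutrophil markers and of 7 of 9 natural killer cell markers above the floor (11 and 6 after raising low values to the floor), and MHCII+ macrophages of 1 natural killer cell marker (Klrd1). Some neutrophil markers were well above the floor on both arrays. Among them were Cxcr2 (14.7 in MHCII+ and 15.96 in MerTK- macrophages), Stfa2l1 (13.6 and 16.1) and Mmp9 (12.3 and 14.4). Elane (4.14) and Ltf (4.11) were under the floor in MHCII+ macrophages. The widest gap of the natural killer cell markers was that of Gzma (5.20 and 13.04, 230-fold higher in MerTK- macrophages). Of the dendritic cell markers, 4 of 9 reached 2-fold in MHCII+ macrophages and 1 (Itgae) in MerTK- macrophages, and after raising low values to the floor these were 4 and 0. Ccl17 was 27.3-fold higher in MHCII+ macrophages (10.1 and 5.33) and Cd209a at least 15.4-fold. Of the proliferation genes, 6 of 15 (40.0%) reached 2-fold in MHCII+ macrophages and 0 in MerTK- macrophages, with a median difference of 0.89. Of all genes above the floor, 13.4% reached 2-fold in MHCII+ macrophages. The replication gene Rrm1 had values of 8.49 and 6.41, while Top2a, a gene of dividing cells, was near the floor on both arrays (4.29 and 4.72). The part of these cells, or of dividing cells, in the values below was not tested. In such bulk samples, fewer cells of a type and less RNA per cell cannot be told apart.

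Nucleolar genes were mostly higher in MHCII+ macrophages. Of the 53 genes above the floor, 47 were higher there, 20 of them (37.7%) by 2-fold or more, and 0 were so in MerTK- macrophages. Among all 10521 genes above the floor, 58.4% were higher in MHCII+ macrophages, 13.4% by 2-fold or more, and 6.89% reached 2-fold in MerTK- macrophages. The median difference was 0.87 over the 53 genes and 0.15 over all genes above the floor. Only Dkc1 passed the floor through 1 array alone. Over the 52 genes above the floor on both arrays, 19 reached 2-fold in MHCII+ macrophages (36.5%) and 0 in MerTK- macrophages, against 12.6% and 6.51% of all such genes. With no floor it was 20 of 56 (35.7%) and 0, against 7.49% and 5.07%. The 14 housekeeping genes measured here leaned the same way, with a median of 0.55. At 2-fold or more were 6 of them (42.9%), a larger share than the 37.7% of the 53 genes. Direction depended on scaling for some genes. Centring on housekeeping genes left 33 of the 53 higher in MHCII+ macrophages and turned 14, centring on all genes turned 1, quantile normalization turned 2, and centring on hybridization controls turned all 6 that were lower.

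**Figure D1:**
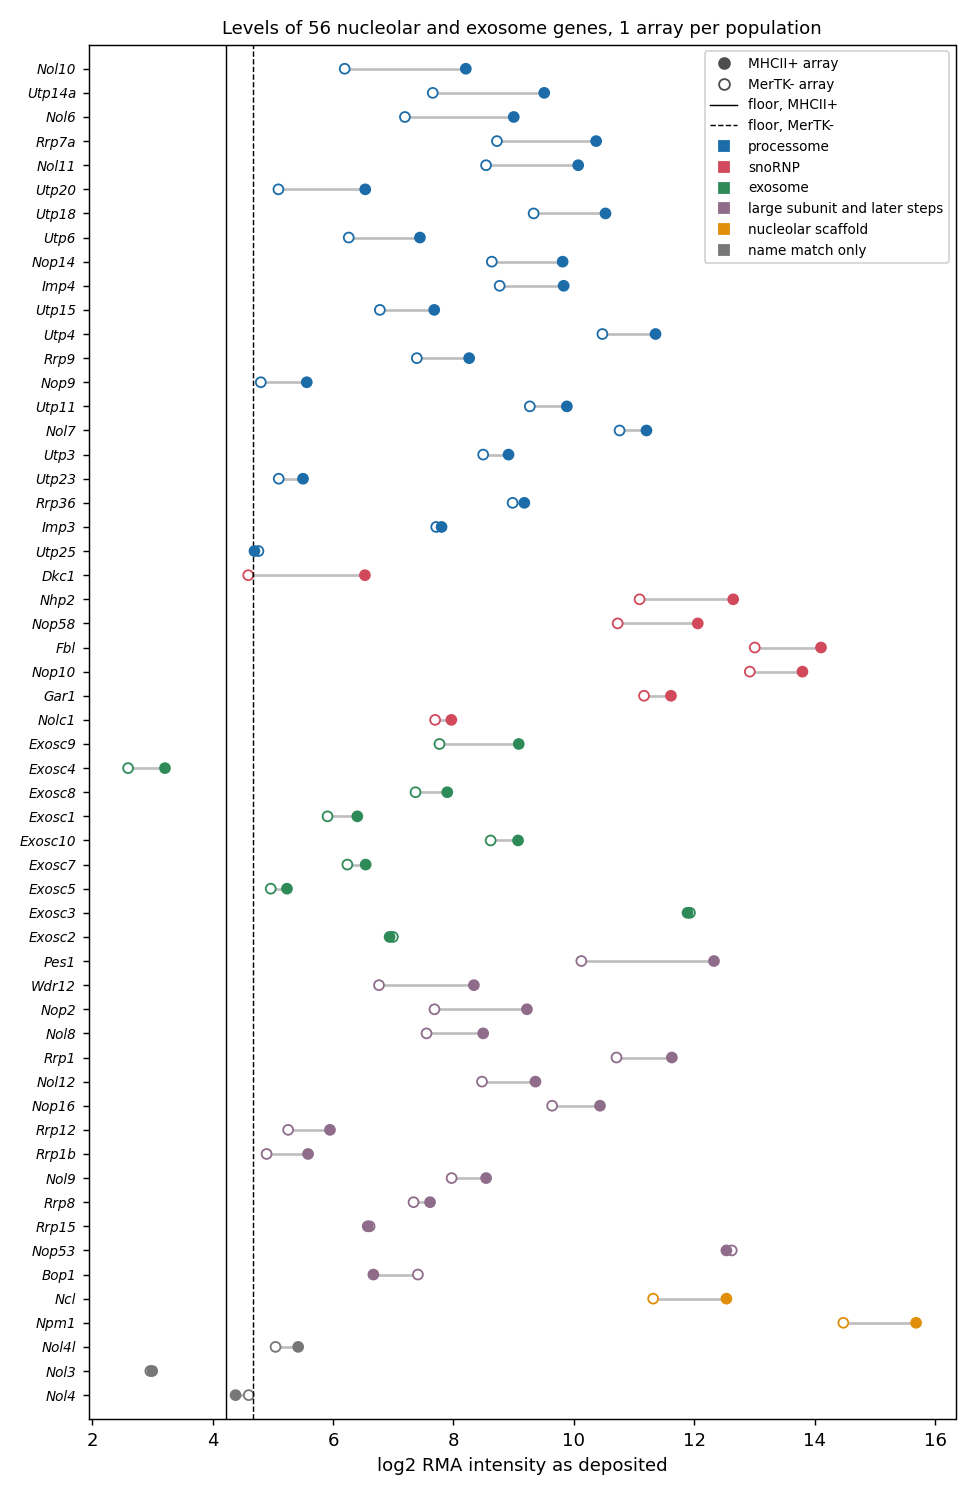
Log2 intensity (horizontal axis) of the 56 genes, 1 gene per line, for MHCII+ (filled points) and MerTK- macrophages (open points), with lines at the floor of each array. Colours give the class. Most filled points lie to the right of the open ones, by up to 2.20 for Pes1, and Bop1 is the widest gap the other way (-0.74), a direction that turns if the arrays are centred on the hybridization controls.

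The lean was wider at a mean level of 8 and above than at one under 8. Of 23 nucleolar and exosome genes with a mean level under 8, 5 were 2-fold or more higher in MHCII+ macrophages (21.7%), where 13% of all genes in that range were. From 8 to 10 it was 9 of 16 (56.3%) against 17.3%, and from 10 upwards 6 of 14 (42.9%) against 11.4%.

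**Figure D2:**
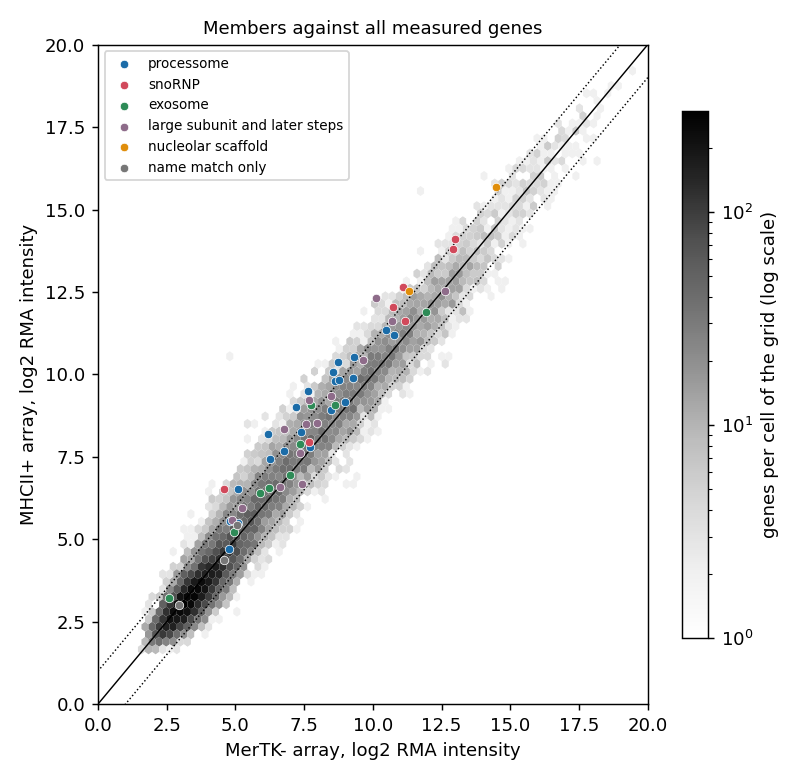
Log2 intensity on the MHCII+ array (vertical axis) against the MerTK- array (horizontal axis) for 19505 genes, in grey by their number per grid cell on a log scale, with the 56 genes as coloured points. The solid line marks equal values and the dotted lines a 2-fold difference. In the 53 genes above the floor, 20 points lie on or above the upper dotted line and 0 below the lower one.

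Promoter windows were read for the genes of these classes, since most of them were higher in 1 population and nucleolar genes are known targets of MYC, a transcription factor that binds the E-box CACGTG. The windows, from RefSeq on mouse build GRCm38.p6, run from 250 bases before to 50 after a start of transcription, and 43 of the 56 genes matched, 8 of them with several windows. The hexamer CACGTG, which reads alike on both strands, was in at least 1 window of 10 of these 43 genes (23.3%), in those of 11.7% of 8586 measured genes above the floor and in those of 8.09% of all 27025 genes with a window. Of the 15 genes with a window that were 2-fold or more higher in MHCII+ macrophages, 7 held it, namely Pes1, Nop2, Nol11, Utp18, Utp20, Rrp7a and Imp4. Of the other 28 genes, 3 did (Utp4, Utp25 and Exosc5). Among all genes above the floor, the hexamer was in 14.5% of those 2-fold or more higher in MHCII+ macrophages and in 11.2% of the rest. By class it was in 7 of 17 processome genes, 0 of 6 snoRNP genes, 1 of 7 exosome genes and 2 of 11 large-subunit genes. The motif was chosen after the values had been seen, and the part of MYC was not tested. A match does not show a bound site or which protein would bind it. A missing match says only that these letters are not in the window.

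The stretches from 100 bases before the start to the 30 bases from it are shown for Pes1, Nop2, Nol11 and Utp18, which hold the hexamer and were over 2-fold higher in MHCII+ macrophages, for Exosc5, which holds it and was not, and for Nol10, which was 4.03-fold higher and lacks it. Capitals mark CACGTG, and each reads in the direction of its gene.
Pes1: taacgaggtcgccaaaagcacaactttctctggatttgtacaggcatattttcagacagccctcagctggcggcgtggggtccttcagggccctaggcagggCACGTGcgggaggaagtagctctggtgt
Nop2: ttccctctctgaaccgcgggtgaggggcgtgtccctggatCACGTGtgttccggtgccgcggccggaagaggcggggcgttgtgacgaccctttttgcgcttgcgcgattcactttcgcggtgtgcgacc
Nol11: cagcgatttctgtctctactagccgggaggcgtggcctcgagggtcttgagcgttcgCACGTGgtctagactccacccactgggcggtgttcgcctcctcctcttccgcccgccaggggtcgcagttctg
Utp18: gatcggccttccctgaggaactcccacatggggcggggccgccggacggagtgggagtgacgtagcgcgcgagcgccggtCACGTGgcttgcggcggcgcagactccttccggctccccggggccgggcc
Exosc5: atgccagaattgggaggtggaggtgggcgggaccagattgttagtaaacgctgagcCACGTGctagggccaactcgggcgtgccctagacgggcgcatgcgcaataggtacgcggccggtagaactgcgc
Nol10: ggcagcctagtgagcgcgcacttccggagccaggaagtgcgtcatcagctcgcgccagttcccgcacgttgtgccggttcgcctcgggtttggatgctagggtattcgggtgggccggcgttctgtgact
They lie at chr11:3963875-3964004, + strand (Pes1), chr6:125131783-125131912, + strand (Nop2), chr11:107189352-107189481, - strand (Nol11), chr11:93885737-93885866, - strand (Utp18), chr7:25659053-25659182, + strand (Exosc5) and chr12:17348393-17348522, + strand (Nol10). Counting the base before the start as -1, the hexamer begins at -60 in Nop2, -43 in Nol11, -20 in Utp18 and -44 in Exosc5, and at the base 3 of the transcript in Pes1.

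Processome genes were higher in MHCII+ macrophages for 20 of 21, by at least 2-fold for 10 (47.6%), with a median difference of 0.90. Of all genes above the floor, 58.4% were higher there, 13.4% by at least 2-fold. Nol10, the homologue of the yeast processome subunit Enp2, measured 8.20 in MHCII+ macrophages against 6.19 in MerTK- macrophages, a 4.03-fold difference that 1.59% of genes above the floor exceeded. Utp14a, which in yeast activates the helicase that frees the U3 RNA, had values of 9.51 and 7.66 (3.61-fold). The subunits of UtpC, a small subcomplex, were Nol6 with 9.001 and 7.19 (3.50-fold) and Rrp7a with 10.4 and 8.72 (3.13-fold). Both UtpC genes were thus over 3-fold higher on the MHCII+ array.

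The t-UTP subcomplex, which joins the precursor as it is transcribed, had 3 measured genes, all higher in MHCII+ macrophages. Nol11 had values of 10.1 and 8.54 (2.89-fold), Utp15 of 7.68 and 6.78 (1.87-fold) and Utp4 of 11.4 and 10.5 (1.84-fold). Of the UtpB subcomplex, which sits at the start of the precursor, Utp18 had values of 10.5 and 9.33 (2.29-fold) and Utp6 of 7.44 and 6.26 (2.27-fold). Utp20, a long scaffold protein, had 6.53 and 5.09 (2.72-fold), and Nop14, of the head of the small subunit, 9.81 and 8.64 (2.26-fold).

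Partners within the processome did not always lie together. Imp4 and Imp3, which bring the U3 RNA into pairing with the precursor, had differences of 1.06 (9.83 and 8.77) and 0.09 (7.80 and 7.71). Rrp9, the protein that marks the U3 snoRNP itself, had values of 8.26 and 7.39 (1.83-fold). The remaining 7 genes, Nop9, Utp11, Nol7, Utp3, Utp23, Rrp36 and Utp25, had differences from 0.76 for Nop9 down to -0.07 for Utp25. Utp25 was close to the floor on both arrays (4.696 and 4.76).

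All 7 snoRNP genes were higher in MHCII+ macrophages, 4 of them at least 2-fold (57.1%, where 13.4% of all genes above the floor were), with a median difference of 1.10. Of the box C/D kind, Fbl (fibrillarin), the methyltransferase, measured 14.1 in MHCII+ macrophages against 13.002 in MerTK- macrophages (2.14-fold), and Nop58, a core protein, 12.1 and 10.7 (2.51-fold). Both box C/D genes were over 2-fold higher on the MHCII+ array.

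The 4 genes of the box H/ACA core differed more among themselves. Dkc1 (dyskerin), the pseudouridine synthase, had values of 6.53 and 4.59, the latter under the floor of its array, and its MHCII+ value was at least 3.62-fold that of MerTK- macrophages. Nhp2 had values of 12.6 and 11.1 (2.94-fold), Nop10 of 13.8 and 12.9 (1.83-fold) and Gar1 of 11.6 and 11.2 (1.36-fold). These proteins form a single particle, which also makes part of the telomerase enzyme. Nolc1, a chaperone that moves snoRNPs through the nucleus, had the smallest snoRNP difference, with 7.96 and 7.70 (1.21-fold).

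Exosome genes lay closer together on the arrays. Of 8 above the floor, 6 were higher in MHCII+ macrophages and 1 reached 2-fold (12.5%, where 13.4% of all genes did), with a median difference of 0.38, which became -0.17 when the arrays were centred on housekeeping genes. Exosc9, of the ring of RNase PH-like subunits, was the exception, at 9.08 in MHCII+ macrophages against 7.77 in MerTK- macrophages (2.49-fold). The other ring genes above the floor were Exosc8 with 7.90 and 7.37 (1.44-fold), Exosc7 with 6.54 and 6.24 (1.23-fold) and Exosc5 with 5.24 and 4.97 (1.21-fold). Each of these 3 was under 1.5-fold apart.

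In the cap of the exosome, through which RNA enters the barrel, Exosc2 and Exosc3 were almost level between the populations as deposited. Exosc1 had values of 6.40 and 5.91 (1.41-fold), Exosc2 of 6.94 and 6.99 (1.04-fold higher in MerTK-) and Exosc3 of 11.9 and 11.9 (1.03-fold higher in MerTK-). Exosc10, the nuclear exonuclease that attaches to the core, had values of 9.07 and 8.62 (1.37-fold). The directions of Exosc2 and Exosc3 turn when the arrays are centred on the hybridization controls. Centred on housekeeping genes, the differences were -0.06 for Exosc1, -0.60 for Exosc2 and -0.59 for Exosc3, so which cap gene is level depends on the scaling.

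The median difference of the exosome genes was lower than that of the processome genes by 0.52, and the snoRNP median was higher than the processome median by 0.20. The ranges overlapped, from -0.07 to 2.01 for the processome, from 0.27 to 1.94 for snoRNP and from -0.05 to 1.32 for the exosome. These gaps between classes do not depend on centring, which moves every gene alike, but with 1 array per population none of them could be tested, and the smaller one turned to -0.019 with the negative-control floor.

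**Figure D3:**
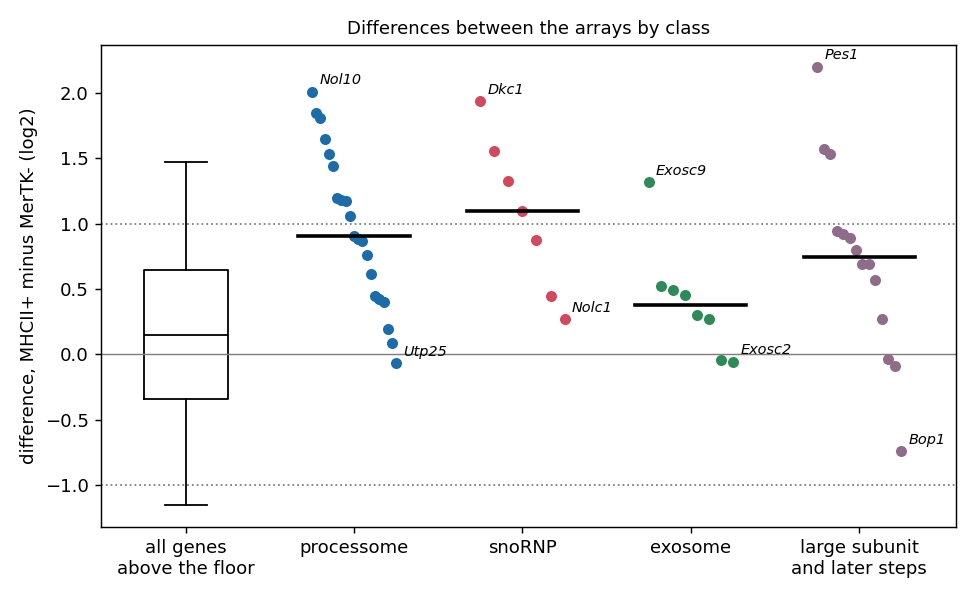
Difference in log2 intensity, MHCII+ minus MerTK- (vertical axis), for genes above the floor in 4 classes. Points are genes, thick bars class medians (0.90, 1.10, 0.38 and 0.74 from left to right), and the box gives the quartiles and median of all 10521 genes, with whiskers from the 5th to the 95th percentile. The exosome points, apart from Exosc9, lie below the median of the processome, a median that is positive under all scalings tried while that of the exosome turns to -0.17 if centred on housekeeping genes.

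Genes of the large subunit and later steps had a median difference of 0.74, with 11 of 14 higher in MHCII+ macrophages, where 58.4% of all genes above the floor were. By 2-fold or more it was 3 (21.4%), against 13.4% of all genes above the floor. The PeBoW complex, which joins Pes1, Bop1 and Wdr12 in maturing the large subunit, was split. Pes1 measured 12.3 in MHCII+ macrophages against 10.1 in MerTK- macrophages, a 4.604-fold difference that was the largest of the 56 genes and that 1.09% of genes above the floor exceeded. Wdr12 had values of 8.34 and 6.76 (2.98-fold). Bop1 had values of 6.67 and 7.41, or 1.67-fold higher in MerTK- macrophages, and was the only 1 of the 56 over 1.5-fold higher there, although its difference of -0.74 turned to 0.20 when centred on the hybridization controls.

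Nop2, a cytosine methyltransferase of large-subunit RNA, had values of 9.22 and 7.68 (2.90-fold). Between 1.5-fold and 2-fold higher in MHCII+ macrophages were 6 genes, namely Nol8 (1.92-fold), Rrp1 (1.89-fold), Nol12 (1.85-fold), Nop16 (1.74-fold), Rrp12, which works in the export of pre-ribosomes (1.62-fold), and Rrp1b (1.61-fold). Nol9, a kinase of the spacer RNA ends, was 1.49-fold and Rrp8, an adenosine methyltransferase, 1.21-fold higher there. Rrp15 (6.58 and 6.61) and Nop53, which brings the helicase of the exosome to the pre-ribosome (12.5 and 12.6), were level within 1.1-fold.

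The nucleolar scaffold proteins were over 2-fold higher in MHCII+ macrophages. Ncl (nucleolin) had values of 12.5 and 11.3 (2.33-fold), and Npm1 (nucleophosmin) of 15.7 and 14.5 (2.31-fold). Of the genes that match by name only, Nol4l had values of 5.42 and 5.05 (1.30-fold) and Nol3 and Nol4 did not count as above the floor.

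Pathway genes outside the name rule were also mostly higher in MHCII+ macrophages. Among all genes above the floor, 58.4% were higher there. By 2-fold or more it was 13.4% of all genes, or 11.8% after raising low values to the floor. Exosome cofactors lay near these shares, with 10 of 18 higher in MHCII+ and 8 in MerTK- macrophages. Of 30 other processome genes, 27 were higher in MHCII+ macrophages, 12 of them by 2-fold or more (40.0%), with a median of 0.83, led by Pwp2 (7.83 and 6.28) and Wdr75 (9.21 and 7.75). Of 40 other large-subunit factors above the floor, 39 were higher there and 20 by 2-fold or more (19 after raising low values to the floor), with a median of 0.98, led by Noc3l (8.87 and 6.75) and Wdr74 (12.2 and 10.1). Of 12 snoRNP assembly factors, 4 were at least 2-fold higher, with a median of 0.70, led by the AAA+ ATPase gene Ruvbl1 (9.09 and 7.07). Genes of RNA polymerase I transcription had a median of 0.63, with 4 of 18 (22.2%) at least 2-fold higher, the polymerase subunit Polr1e at their head (7.97 and 6.42). Exosome cofactors had the lowest median, 0.26, or 0.11 after raising low values to the floor. Of these 18, 10 were higher in MHCII+ macrophages and 2 by 2-fold or more after raising low values to the floor, namely C1d (8.79 and 7.13) and the exonuclease gene Dis3 (7.64 and 6.60). As deposited the count was 3 (16.7%), with Dis3l (4.83 and 3.07), whose MerTK- value was under the floor and which was at least 1.11-fold higher. At the other end were Zc3h18 (4.96 and 5.77) and Zcchc8 (10.2 and 10.8), of nuclear exosome adaptors. No gene of these 5 lists reached 2-fold in MerTK- macrophages.

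How many genes passed 2-fold depended on how the arrays were set against each other. Centring on the median of all genes above the floor left 18 of 53 genes 2-fold or more higher in MHCII+ macrophages, against 9.93% of all genes. Centring on housekeeping genes left 8 (15.1%), against 4.18%. Bop1 was then over 2-fold higher in MerTK- macrophages, where 21.0% of all genes were so. Centring on the 4 hybridization controls, bacterial and phage transcripts added to each array, whose median difference was -0.93, gave 47 (88.7%), against 54.9%.

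**Figure D4:**
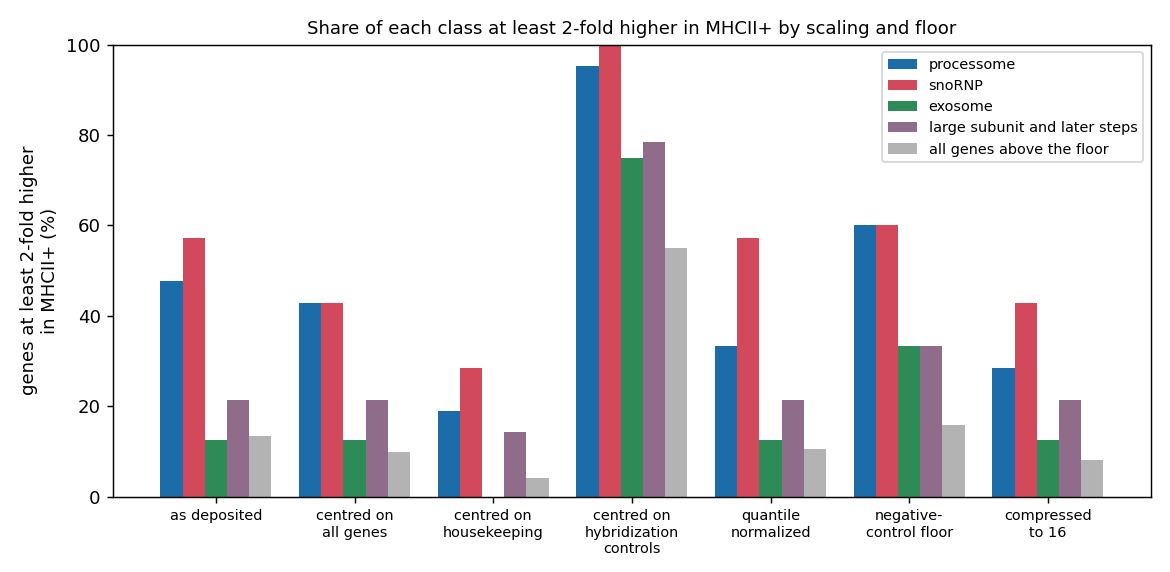
Share of each class (vertical axis, % of its genes above the floor) 2-fold or more higher in MHCII+ macrophages as deposited and under 4 scalings, a floor from negative-control probe sets, and values compressed to a highest value of 16. Grey bars give all genes above the floor. The processome and snoRNP bars are above the grey bar under each of these 7 settings. The exosome bar is above it under 5 of them, just below it as deposited (12.5% against 13.4%) and at 0 when centred on housekeeping genes. Most of these exosome positions rest on 1 gene, of 8 above the floor or of 3 with the negative-control floor. Centring on hybridization controls gives 6 of 8.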

How the data were processed

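Expression was measured on 2 mouse Clariom S arrays, 1 per population. The series description names an older array, but the probe set names are those of Clariom S. The deposited values are log2 intensities, which the authors made by Robust Multichip Analysis (RMA), run at its defaults and followed by scaling all arrays globally. Affymetrix Expression Console is the tool in the submitters' processing notes, and no genome build is given there. Values ran up to 19.8, above the 16 that a 16-bit scan allows, and whether a scaling shifted them or stretched them, which would enlarge folds, cannot be told apart. No counts exist for arrays, and no depth can be given.

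Of 28846 probe sets, 19572 carry 1 gene symbol in the platform annotation and were used. For 55 genes with several, the probe set with the highest mean was taken, which gave 19505 genes. All 56 genes kept their symbol in the NCBI table of GRCm38.p6. The floor was the 95th percentile of 1452 olfactory, vomeronasal and taste receptor probe sets on each array. A lower value at or below its floor was set to it for folds given as "at least". Counts used a 2-fold threshold on deposited values, the threshold of the study, and no test was run, since each group has 1 array. Values were computed with Python 3.11.15 and pandas 2.3.3, and the calculation was tested on simulated data.

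Genes were named by a rule. It gives every snoRNP and exosome gene with values, and of the other classes those at least 2-fold apart and the extremes. Others were added for their subcomplex. The genes, classes, lists and alternatives were chosen with earlier results of these data known. The compression to 16 and the promoter motifs were added after the values had been seen.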

Additional observations from a re-analysis of the deposited data

How the results depend on the processing

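As deposited, 20 genes reached 2-fold in MHCII+ macrophages and 0 in MerTK- macrophages, and the medians were 0.90 for the processome, 1.10 for snoRNP, 0.38 for the exosome and 0.74 for the large subunit. The first count was 8 when centred on housekeeping genes (15.1%, against 4.18% of all genes) and 47 when centred on hybridization controls (88.7%, against 54.9%). It was 32 at a 1.5-fold threshold (60.4%, against 27.5%) and 13 with values compressed to a highest value of 16 (24.5%, against 8.15%). Under the other alternatives it was between 14 and 20. The 14 was of only 26 genes with the negative-control floor (53.8%, against 15.8% of all genes). The second was 1 (Bop1) when centred on housekeeping genes (21.0% of all genes) and at 1.5-fold (16.8%), and 0 otherwise. In the order processome, snoRNP, exosome and large subunit, the medians were 0.76, 0.95, 0.23 and 0.60 when centred on all genes, 0.35, 0.55, -0.17 and 0.20 when centred on housekeeping genes, and 1.84, 2.04, 1.31 and 1.68 when centred on hybridization controls. Quantile normalization gave 0.77, 0.23 and 0.64 for the processome, exosome and large subunit, compression 0.73, 0.89 and 0.60 for the processome, snoRNP and large subunit, and the negative-control floor, which kept only 26 of the genes, 1.12 and 0.90 for the processome and large subunit. The gap of exosome minus processome, -0.52, was -0.66 with that floor, and that of snoRNP minus processome, 0.20, was -0.019 with that floor and 0.30 after quantile normalization. The mean of probe sets changed none of these, since no gene had several. The 14 housekeeping genes ranged from -0.22 to 2.09 and the hybridization controls from -1.14 to -0.75, so neither gives a firm zero. Over all genes above the floor, the calls higher in MHCII+ and in MerTK- macrophages were 1407 and 725 as deposited, 1045 and 1005 centred on all genes, 440 and 2209 on housekeeping genes, 5777 and 70 on hybridization controls, and 1117 and 931 after quantile normalization. No paired analysis was possible because each population has 1 array, and leaving out a replicate was not possible for the same reason.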

Other observations

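Of other promoter motifs searched in the 43 genes with a window, on both strands, the ETS motif CCGGAAGT was in 7 (16.3%) against 9.08% of genes above the floor and 4.31% of all genes with a window, among them 2 of 6 snoRNP genes and none of the exosome genes. The NRF1 motif was in 1 (2.33%) against 2.34% and 1.07%, and TATAAA in 5 (11.6%) against 9.90% and 15.7%. The median difference was 1.32 over the 10 genes with CACGTG and 0.69 over the 33 without it, and 0.21 and 0.14 over all genes above the floor. For TATAAA it was 1.53 over the 5 genes with it and 0.78 over those without it, and 0.07 and 0.15 over all genes above the floor. For the ETS motif it was 0.88 and 0.83, and 0.31 and 0.13 over all genes above the floor. These are descriptions with no test.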
